A study of Mus musculus with 6 samples.

Results

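The insulin-like growth factor (IGF) family was followed in the injured mouse spinal cord through 10 genes, which were chosen by name: the ligands Igf1 and Igf2, the receptors Igf1r and Igf2r, and the binding proteins Igfbp2, Igfbp3, Igfbp4, Igfbp5, Igfbp6 and Igfbp7. All 10 were found among the 36629 genes listed, and all 10 were among the 17435 that were high enough to test. Bulk RNA-seq had been made from T8 to T12 cord of C57/BL6 mice aged 3 to 5 weeks, 3 days after surgery at the T9 and T10 vertebrae. The 3 sham libraries came from mice with a laminectomy, the removal of the bony roof over the cord, and the 3 SCI (spinal cord injury) libraries from mice whose exposed cord was also crushed with a 60 g vascular clip for 5 seconds. The mice carried no transgene or deletion that the labels name, and both groups had the anaesthesia and the laminectomy. The sources used here do not say whether each library came from 1 animal, so p-values measure the spread between these libraries.

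IGF1 and IGF2 are small secreted proteins that promote growth and survival of cells. Both act through IGF1R, a receptor tyrosine kinase, while IGF2R carries no kinase, takes IGF2 into lysosomes for breakdown and also sorts lysosomal enzymes that bear mannose 6-phosphate. Secreted IGF-binding proteins hold the ligands in the extracellular fluid, prolong their lifetime and keep them from the receptor or bring them to it, and proteases release the ligand by cutting them. In nervous tissue microglia are a known source of IGF1, and the meninges and blood vessels are known sources of IGF2 and of several binding proteins.

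The unit is the authors' FPKM: read fragments over the length of the gene model, scaled to the size of the library. Where 3 values of a group are listed, they stand in the order of replicates 1, 2 and 3. Because FPKM is per length, levels of different genes can be set beside each other. The markers of the labelled tissue were present: all 9 neuronal, all 9 astrocyte and all 9 oligodendrocyte marker genes were high enough to test. Of the libraries, 3 stood apart in markers of other tissue. Sham replicate 2 had a summed level of the 8 Schwann cell markers of 1330 FPKM, against 2755 and 2774 in the other sham libraries and 724 to 827 in SCI libraries. SCI replicate 2 had a summed level of the 6 red blood cell markers of 45075 FPKM, against 4718 and 1529 in the other SCI libraries. SCI replicate 3 had the highest summed level of the 7 skeletal muscle markers, at 552 FPKM against 142 and 85.8. Pvalb alone gave 118 FPKM of the first sum and 96.3 and 74.3 of the others. SCI replicate 3 was also the only library in which the sensory neuron channel Scn10a was above 0. A change is called here when the limma adjusted p (Benjamini-Hochberg over all 17435 genes tested) is under 0.05. A log2 change is the mean of log2(FPKM + 1) in SCI libraries less that in sham libraries. The added 1 makes it understate what happened to low genes. The SE beside it is the moderated one that limma gives.

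Of the 10 family members 7 were called higher in injured cord and 0 lower. Over all genes tested 26.7% were called higher and 30.8% lower. The binding protein genes Igfbp3, Igfbp2, Igfbp5, Igfbp7 and Igfbp4 rose most, then the ligand gene Igf1 and the receptor gene Igf2r. Igfbp6, Igf1r and Igf2 did not pass. The groups did not overlap, with all SCI libraries above all sham libraries, for 8 of the 10, as for 30.7% of all genes tested. The median log2 change of the 10 members was 1.21, where it was −0.08 over all genes tested and 0.84 over the 4653 genes called higher. All 7 calls held without sham replicate 2, without SCI replicate 2 and without SCI replicate 3, each left out in turn.

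**Figure D1:**
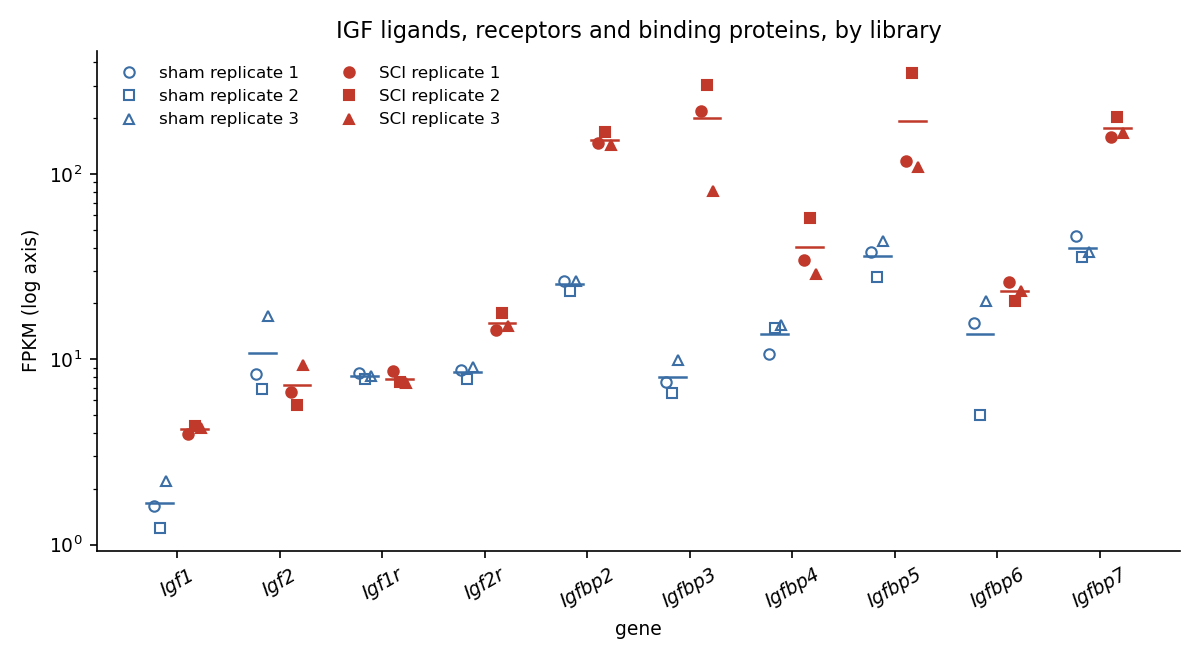
FPKM of the 10 family members (log axis) in each library, with sham as open blue and SCI as filled red symbols, the replicate number as symbol shape and the group mean as a line. The SCI libraries lay above all sham libraries for 8 of the 10 genes, and Igf1r and Igf2 overlapped.

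Of the 6 binding protein genes measured, 3 lie beside another IGF-binding protein gene. On GRCm38, Igfbp2 occupies chromosome 1 from 72824503 to 72852474 on the plus strand, and Igfbp5 the same chromosome from 72857932 to 72874884 on the minus strand. Their 3′ ends face each other across 5457 bases. Igfbp3 occupies chromosome 11 from 7206086 to 7213923 on the minus strand and faces Igfbp1, from 7197782 to 7202546 on the plus strand, across 3539 bases. Igfbp1, a binding protein known from liver, is no member of the set followed here. The RefSeq sequence before the start site of these 4 genes is shown because Igfbp2, Igfbp5 and Igfbp3 had the 3 largest changes of the family, while Igfbp1 beside Igfbp3 was at or near 0. Capitals mark the GC box, GGGCGG on either strand.
Igfbp2, chr1:72824230-72824479 (GRCm38.p6, plus strand): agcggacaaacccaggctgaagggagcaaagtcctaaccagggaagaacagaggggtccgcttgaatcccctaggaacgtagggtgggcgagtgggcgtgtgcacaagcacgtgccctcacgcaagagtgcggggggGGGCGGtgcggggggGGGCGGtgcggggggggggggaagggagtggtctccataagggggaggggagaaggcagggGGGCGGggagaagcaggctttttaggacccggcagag
Igfbp5, chr1:72874885-72875115 (GRCm38.p6, minus strand): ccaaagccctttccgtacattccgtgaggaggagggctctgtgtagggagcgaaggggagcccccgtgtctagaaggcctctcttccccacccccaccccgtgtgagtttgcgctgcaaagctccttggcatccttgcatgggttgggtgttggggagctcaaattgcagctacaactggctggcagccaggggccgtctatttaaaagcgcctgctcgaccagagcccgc
Igfbp3, chr11:7213924-7214173 (GRCm38.p6, minus strand): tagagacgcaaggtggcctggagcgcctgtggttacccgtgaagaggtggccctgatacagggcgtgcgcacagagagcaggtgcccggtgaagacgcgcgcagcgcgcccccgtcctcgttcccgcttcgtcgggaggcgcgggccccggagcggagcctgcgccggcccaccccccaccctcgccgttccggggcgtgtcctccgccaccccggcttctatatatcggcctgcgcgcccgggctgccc
Igfbp1, chr11:7197537-7197781 (GRCm38.p6, plus strand): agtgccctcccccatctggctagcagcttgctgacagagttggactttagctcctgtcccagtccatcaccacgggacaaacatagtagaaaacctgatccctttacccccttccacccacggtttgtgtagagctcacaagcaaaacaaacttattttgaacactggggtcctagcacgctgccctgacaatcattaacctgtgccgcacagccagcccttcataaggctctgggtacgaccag

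Each window runs 5′ to 3′ up to the start site, leaving out bases inside the files' own gene model. The Igfbp3 window was 73.2% G and C, that of Igfbp2 67.2%, that of Igfbp5 60.6% and that of Igfbp1 52.7%, where the median of all 32851 RefSeq windows of 250 bases was 52.4%. Igfbp2 held 3 GC boxes, which start 113, 98 and 37 bases before its start site, and the other windows held none. A GC box was present in 32.7% of all windows. The TATA box as TATAAA (12.4% of all windows), the AP-1 motif as TGANTCA (6.75%) and the STAT motif as TTCNNNGAA (7.02%) were searched on both strands as well, and none of these letters was found in the 4 windows shown. No 2 of the matches in these windows overlapped. A further RefSeq start of Igfbp2, inside the gene, had 1 AP-1 motif that starts 39 bases before it. Of the other rising binding protein genes, the Igfbp7 window held 4 GC boxes and the Igfbp4 window 1 TATA box, 28 bases before the start site.

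Igfbp3, whose product is the main IGF carrier of blood plasma, changed most. The sham libraries 1, 2 and 3 held 7.57, 6.59 and 9.96 FPKM, and SCI libraries 1, 2 and 3 held 219, 303 and 80.5 FPKM. The lowest injured library was thus far above the highest sham library, while the injured libraries differed widely among themselves. The mean rose 25.0-fold, from 8.04 ± 1.73 to 201 ± 112 FPKM (SD, n = 3 per group). The log2 change was 4.30 (SE 0.44, limma adjusted p = 2.8e-04), place 37 among the 17435 genes tested when ordered by change. Without SCI replicate 3, its lowest injured library, the log2 change was 4.86, and without SCI replicate 2 it was 3.91. The neighbouring Igfbp1 was listed at 0 in 5 of the 6 libraries and at 0.06 FPKM in SCI replicate 1.

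Igfbp2 and Igfbp5, the facing pair on chromosome 1, both rose. Igfbp2, a binding protein of astrocytes and the choroid plexus, was present at 26.5, 23.4 and 26.5 FPKM (sham) and 147, 168 and 144 FPKM (SCI). Both groups were tight, and the distance between them was many times their spread. The mean rose 6.01-fold, with a log2 change of 2.54 (SE 0.09, limma adjusted p = 7.8e-06). Its SE was the smallest of the 10 members.

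Igfbp5, a binding protein that also attaches to extracellular matrix, was detected at 38.0, 27.7 and 43.2 FPKM without injury and 118, 349 and 109 FPKM with it. SCI replicate 2 held more than the other 2 injured libraries together. The log2 change was 2.18 (SE 0.43, limma adjusted p = 0.0042). The mean rose 5.29-fold over all libraries and 3.13-fold without SCI replicate 2, where the log2 change was 1.64 (limma adjusted p = 5.4e-04). SCI replicate 2 was also the library high in red blood cell markers. Its summed neutrophil markers (716 FPKM against 300 and 157), macrophage markers (2555 against 1464 and 1705) and meningeal and perivascular fibroblast markers (1011 against 753 and 764) were the highest too. The endothelial and astrocyte sums were not highest there, but the genes in these lists were divided. Of the endothelial markers, Cdh5, Kdr and Flt1 were highest there, and Cldn5, Ly6c1, Pecam1, Esam and Slco1a4 were not. Of the astrocyte markers, Gfap, Slc1a2 and Gja1 were highest there, and Aqp4, Aldh1l1, Slc1a3, Aldoc, S100b and Gjb6 were not. The part of any of these in the Igfbp5 result was not tested.

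Igfbp7 and Igfbp4 rose as well. Igfbp7, a vessel-associated member that binds IGFs only weakly, measured 46.1, 35.5 and 38.0 FPKM in the 3 sham libraries and 159, 203 and 167 FPKM in the 3 injured ones. The groups were far apart, and the log2 change was 2.12 (SE 0.13, limma adjusted p = 3.2e-05), a 4.42-fold rise of the mean. Igfbp4, which is known mainly as an inhibitor of IGF action, was present at 10.7, 14.8 and 15.3 FPKM (sham) and 34.6, 57.7 and 29.0 FPKM (SCI). Its groups did not overlap, with a 2.97-fold rise of the mean and a log2 change of 1.46 (SE 0.25, limma adjusted p = 0.0025). Igfbp7 spans bases 77349240 to 77408041 of chromosome 5 (minus strand), where its end overlaps that of Polr2b. Igfbp4 spans bases 99041244 to 99054392 of chromosome 11 (plus strand).

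Igfbp6, the binding protein that prefers IGF2, did not pass. It was detected at 15.7, 5.03 and 20.6 FPKM without injury and 26.1, 20.7 and 23.2 FPKM with it. All injured libraries were above all sham libraries, but SCI replicate 2 exceeded sham replicate 3 only slightly, and sham replicate 2 stood well below the other sham libraries. The log2 change was 0.90 (SE 0.43, 95% confidence interval −0.10 to 1.91, limma adjusted p = 0.11). It was 0.35 without sham replicate 2 (adjusted p = 0.10) and 1.27 without sham replicate 3, where it passed (adjusted p = 0.040). Sham replicate 2 was also the sham library with the lowest summed Schwann cell markers. It was also lowest of the sham libraries in summed meningeal and perivascular fibroblast markers, at 625 FPKM against 730 and 701. Among these, Dcn was at 18.9 FPKM there against 56.8 and 42.3, while Ptgds and Dpt were not lowest there. The part of peripheral nerve or meningeal tissue in the Igfbp6 values was not tested. Of the 8 Schwann cell markers 5 fell and 1 rose, and none was at 0. Igfbp6 spans bases 102144362 to 102149511 of chromosome 15 (plus strand).

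**Figure D2:**
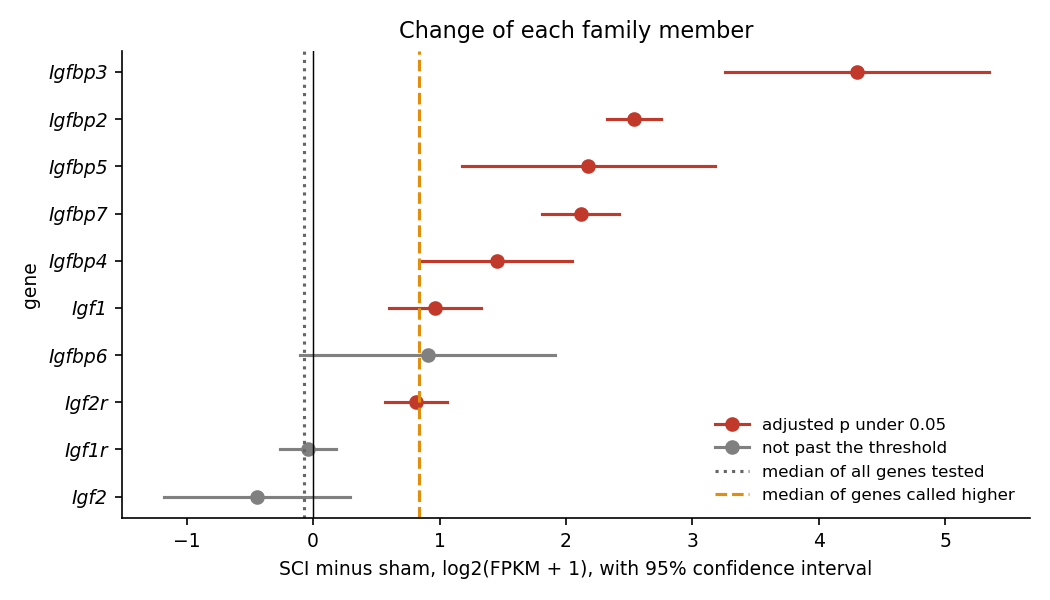
Log2 change (SCI minus sham, log2(FPKM + 1)) of each member with its 95% confidence interval, red where the limma adjusted p was under 0.05 and grey otherwise, with the medians of all genes tested (dotted) and of genes called higher (dashed). Igfbp3, Igfbp2, Igfbp5 and Igfbp7 lay above 2, and the intervals of Igfbp6, Igf1r and Igf2 included 0.

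A log2 change of at least 2 together with a call was reached by 4 of the 10 members, where 3.48% of all genes tested reached it. Added together, the 6 binding protein genes were at 144, 113 and 154 FPKM in sham replicates 1, 2 and 3 and at 704, 1101 and 552 FPKM in SCI replicates 1, 2 and 3. Every injured library held more binding protein transcript than any sham library. The makeup of that sum differed between the groups. Igfbp3 made up 5.24% to 6.49% of it in sham and 31.2%, 27.5% and 14.6% in SCI replicates 1, 2 and 3. The share of Igfbp4 was 7.40% to 13.1% in sham and 4.91% to 5.24% in SCI libraries, so its transcript rose while its share was lower. Igfbp7 was the largest part in sham replicates 1 and 2 and Igfbp5 in sham replicate 3. The largest part was Igfbp3 in SCI replicate 1, Igfbp5 in SCI replicate 2 and Igfbp7 in SCI replicate 3.

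**Figure D3:**
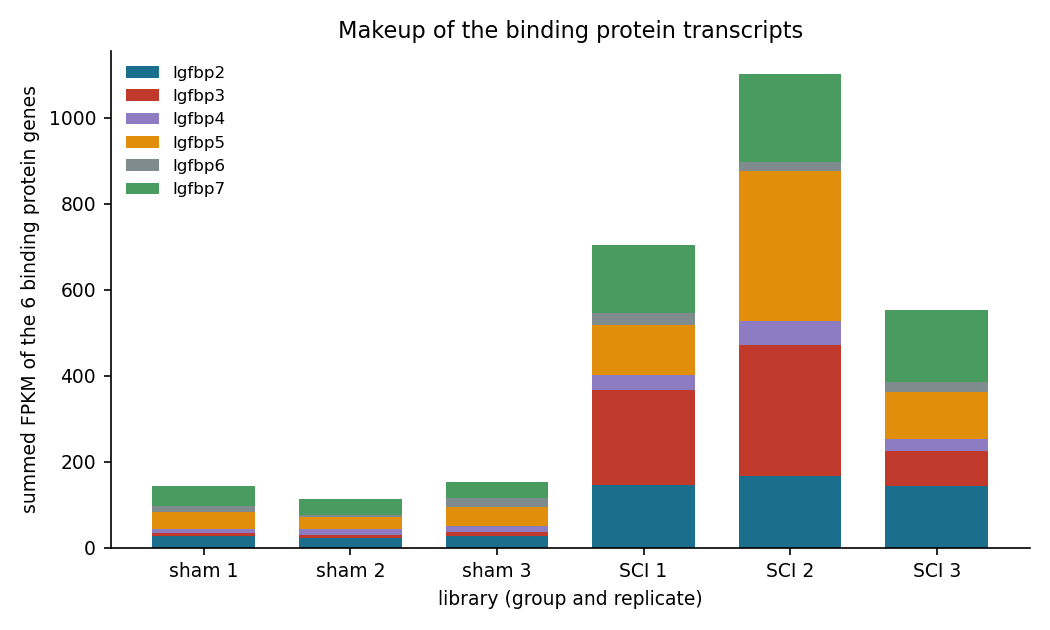
Summed FPKM of the 6 binding protein genes in each library, stacked by gene. The sums were 113 to 154 FPKM in sham and 552 to 1101 FPKM in SCI libraries, and Igfbp3 (red) took 14.6% to 31.2% of the SCI sums.

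Of the ligand genes, Igf1 rose and Igf2 did not pass. Igf1 measured 1.62, 1.23 and 2.20 FPKM in the 3 sham libraries and 3.94, 4.35 and 4.28 FPKM in the 3 injured ones. It was the lowest member in both groups, and its groups did not overlap. The mean rose 2.49-fold, from 1.68 ± 0.488 to 4.19 ± 0.219 FPKM (SD, n = 3 per group), with a log2 change of 0.97 (SE 0.16, limma adjusted p = 0.0018). Of the 8 microglial markers 7 rose, none was at 0, and their summed level went from between 184 and 204 FPKM in sham to between 652 and 799 FPKM in SCI libraries. The 10 monocyte-derived macrophage markers all rose, none was at 0, and their sum went from 123 to 169 FPKM up to 1464 to 2555 FPKM. Their part in the rise of Igf1 was not tested. In whole tissue a change in the number of cells and a change in the RNA per cell cannot be told apart, and this holds for every result here.

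Igf2, the ligand of fetal growth that is expressed from the paternal allele in most tissues, was present at 8.31, 6.90 and 17.1 FPKM (sham) and 6.67, 5.66 and 9.33 FPKM (SCI). Sham replicate 3 and SCI replicate 3 were the highest of their groups, and the groups overlapped. The log2 change was −0.45 (SE 0.31, 95% confidence interval −1.18 to 0.29, limma adjusted p = 0.26), and it was −0.09 without sham replicate 3. Those same libraries had the highest summed skeletal muscle markers of their groups (279 FPKM in sham replicate 3 and 552 in SCI replicate 3, against 218 to 223 and 85.8 to 142 in the others). Of those 7 markers 6 were tested, 1 fell and none rose, and none was at 0 in every library. The one that fell, Pvalb, made up most of these sums except in SCI replicate 3. It was at 188, 200 and 170 FPKM (sham) and 96.3, 74.3 and 118 FPKM (SCI), so it was lowest of its group in sham replicate 3. The summed astrocyte and oligodendrocyte precursor markers were also highest of their groups in sham replicate 3 and SCI replicate 3. The meningeal and perivascular fibroblast sum, in sham mostly Ptgds, was highest in sham replicate 1 and SCI replicate 2. Its members Col1a1, Col3a1 and Lum were highest in sham replicate 3 and SCI replicate 2. The part of any of these in the Igf2 values was not tested. The summed ligand level was 8.13 to 19.3 FPKM in sham and 10.0 to 13.6 FPKM in SCI libraries. Igf1 made up 11.4% to 16.3% of it in sham and 31.4% to 43.5% in SCI libraries. Binding protein transcript per ligand transcript was 14.5, 13.9 and 7.96 in sham replicates 1, 2 and 3 and 66.3, 110 and 40.6 in SCI replicates 1, 2 and 3.

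Igf1 spans bases 87858265 to 87937042 of chromosome 10 (plus strand), and Igf2 bases 142650766 to 142666816 of chromosome 7 (minus strand). The neighbour of Igf2 in its imprinted domain, the noncoding RNA gene H19, lies 72622 bases away. H19 was detected at 1.73, 0.56 and 2.24 FPKM without injury and 13.9, 18.6 and 62.8 FPKM with it. All injured libraries were above all sham libraries, with SCI replicate 3, the library high in muscle markers, well above the others. The log2 change of H19 was 3.47 (SE 0.54, limma adjusted p = 0.0016), and 2.84 without SCI replicate 3 (adjusted p = 7.2e-04). The fold of its means was 21.1 with that library and 10.8 without it. Ins2, the insulin gene on the other side of Igf2, was listed at 0 in every library, as were the overlapping Gm49394 and Mir483.

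Of the receptors, Igf2r rose and Igf1r did not pass. Igf2r measured 8.72, 7.87 and 9.03 FPKM in the 3 sham libraries and 14.5, 17.7 and 15.2 FPKM in the 3 injured ones. Its groups did not overlap, and the mean rose 1.85-fold, with a log2 change of 0.81 (SE 0.10, limma adjusted p = 7.0e-04). Igf1r, the signalling receptor, was present at 8.44, 7.78 and 8.09 FPKM (sham) and 8.62, 7.54 and 7.44 FPKM (SCI). The groups overlapped closely, and the log2 change was −0.04 (SE 0.09, 95% confidence interval −0.26 to 0.18, limma adjusted p = 0.74), or 0.03 under median-ratio scaling. Per transcript of Igf1r there were 1.01 to 1.12 of Igf2r in sham and 1.68 to 2.35 in SCI libraries. Igf2r spans bases 12682406 to 12769664 of chromosome 17 (minus strand), and Igf1r bases 67952827 to 68233668 of chromosome 7 (plus strand). The antisense RNA Airn, which silences the paternal Igf2r allele in many tissues, overlaps Igf2r and was at 1.70 ± 0.0208 FPKM in sham and 1.04 ± 0.0493 FPKM in SCI libraries (SD, n = 3 per group). Its log2 change of −0.41 passed (limma adjusted p = 0.028), a call that ended without any 1 of the 6 libraries (adjusted p from 0.051 to 0.077), without a filter on low values (0.053) and with a replicate block (0.070). The libraries mark strand, but the sources used here do not give whether the quantification used it.

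The order of levels within the family differed between the groups. In sham cord the means ran from Igfbp7 (39.9 FPKM) and Igfbp5 (36.3) through Igfbp2 (25.4), Igfbp6 (13.8), Igfbp4 (13.6), Igf2 (10.8), Igf2r (8.54), Igf1r (8.10) and Igfbp3 (8.04) to Igf1 (1.68). Igfbp7 and Igfbp5 did not differ beyond their SD, nor did any neighbours in the run from Igfbp6 to Igfbp3. In injured cord the means ran from Igfbp3 (201 FPKM) through Igfbp5 (192), Igfbp7 (176), Igfbp2 (153), Igfbp4 (40.4), Igfbp6 (23.3), Igf2r (15.8), Igf1r (7.87) and Igf2 (7.22) to Igf1 (4.19). The SD ranges of neighbours overlapped among Igfbp3, Igfbp5, Igfbp7 and Igfbp2, between Igfbp4 and Igfbp6, and between Igf1r and Igf2. Igfbp3 thus went from place 9 to place 1 by its mean, while Igf1 was at place 10 in both groups.

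Among the injured libraries, all 7 rising members were highest in SCI replicate 2. Of the 4653 genes called higher over the whole table, 60.2% were highest in that library, and of the 5371 called lower 84.8% were lowest in it. Igfbp3, Igfbp5, Igfbp4 and Igfbp2 were the 4 members that also had SCI replicate 1 above SCI replicate 3, an order found in 39.2% of the genes called higher. The 12 markers of meningeal and perivascular fibroblasts, of which 9 rose and 1 fell, summed to 753, 1011 and 764 FPKM in SCI replicates 1, 2 and 3. They summed to 625 to 730 FPKM in sham libraries. Most of the sham sums was Ptgds, the marker that fell, at 563, 537 and 529 FPKM (sham) and 286, 152 and 258 FPKM (SCI). The sum thus understates the rise of the 9. The 9 endothelial markers, of which 7 rose and 1 fell, summed to 414, 359 and 371 FPKM in SCI replicates 1, 2 and 3 and to 191 to 210 FPKM in sham libraries. Within this list Cdh5, Kdr and Flt1 were highest in SCI replicate 2 and lowest in SCI replicate 3. Cldn5, Ly6c1, Pecam1, Esam and Slco1a4 did not have that order, so the sum does not stand for each endothelial gene. The 9 astrocyte markers, of which 3 rose and 6 fell, summed to 4431, 4536 and 4653 FPKM in SCI replicates 1, 2 and 3 and to 3251 to 3393 FPKM in sham libraries. Gfap alone went from 535 to 764 FPKM in sham to 2727 to 2850 FPKM in SCI libraries, so it carried the rise of this sum. No marker in these 3 lists was at 0, and their part in the rise of the binding protein genes was not tested.

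Other genes of the IGF system were taken from 10 lists, which were chosen with earlier results of these data known. A count above the shares of all genes can therefore reflect that choice. The counts below stand against 26.7% of all genes tested called higher and 30.8% called lower, and a median log2 change of −0.08. In the list of other IGF-binding and IGFBP-like genes, 6 of 10 tested rose and 2 fell, with a median log2 change of 1.40. Ccn1, a matricellular protein with an IGFBP-like domain, was detected at 7.08, 4.35 and 10.1 FPKM without injury and 181, 181 and 157 FPKM with it. Its injured libraries were close together and far above sham (log2 change 4.47, SE 0.24, limma adjusted p = 1.9e-05). Esm1, an endothelial proteoglycan with such a domain, measured 0.50, 0.83 and 0.86 FPKM in the 3 sham libraries and 35.5, 66.4 and 12.1 FPKM in the 3 injured ones. Its order over the injured libraries was that of Igfbp3, and its log2 change was 4.21 (SE 0.52, limma adjusted p = 6.2e-04). Htra1, a secreted protease with an IGFBP-like domain, did not pass (log2 change −0.20, adjusted p = 0.060) except after rescaling without mitochondrial and haemoglobin genes (−0.21, adjusted p = 0.039). Igfals, Igfbp1 and Igfbpl1 were too low to test.

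In the list of IGFBP proteases and their inhibitors 9 of 12 tested rose and 0 fell, with a median log2 change of 1.50. The shares over all genes tested were 26.7% higher and 30.8% lower. Timp1, an inhibitor of metalloproteinases, had a log2 change of 6.93 and Adamts1, a metalloproteinase of the ADAMTS family, one of 2.82. Ctsd, the lysosomal protease cathepsin D, was the most abundant gene of the list with Timp1 and had a log2 change of 2.54. Pappa, the protease that cuts IGFBP4, was chosen after its values were seen. It was at 2.34 ± 0.270 FPKM in sham and 2.18 ± 0.290 FPKM in SCI libraries (SD, n = 3 per group) and did not pass (log2 change −0.07, limma adjusted p = 0.67). The list of 3 IGF2 mRNA-binding proteins had 1 tested gene, Igf2bp2, which rose from 0.433 ± 0.182 to 3.08 ± 1.21 FPKM (log2 change 1.48).

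Genes downstream of the receptor moved in both directions and mostly by less. So did the whole table, where 26.7% of genes tested were called higher and 30.8% lower. Counts near these shares are no trait of a list. Among receptor adaptors and substrates 3 of 12 tested rose and 2 fell, with a median log2 change of −0.08, and 4 fell under quantile normalization. Rack1, a scaffold protein of ribosomes and of IGF1R signalling, rose (1.45), as did the adaptor Shc1 (1.32), while Grb2 did not pass (−0.09). The insulin receptor substrate genes Irs1 (−0.07) and Irs2 (0.10) did not pass and were chosen after their values were seen. In the PI3K, AKT and mTOR list 4 of 20 tested rose and 8 fell, with a median of −0.17. Eif4ebp1, a translation repressor that mTOR inactivates, went from 0.950 ± 0.306 to 16.5 ± 2.67 FPKM (log2 change 3.17, limma adjusted p = 1.6e-05). The AKT kinase gene Akt1 rose (0.28). Its call ended without sham replicate 2 (log2 change 0.26, adjusted p = 0.059) and without sham replicate 3 (0.29, adjusted p = 0.050), with a change of about the same size. Without sham replicate 1, 5 genes of this list fell.

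The list of FOXO factors and their targets, which AKT signalling is known to repress, had 2 of 10 tested genes higher and 6 lower. Its median log2 change was −0.39. Over all genes tested 26.7% were higher and 30.8% lower, also the shares beside the tagging list below. Bcl2l11, which promotes apoptosis, rose (0.76), and the ubiquitin ligase gene Fbxo32 fell (−0.62). Sesn1, a stress-induced inhibitor of mTOR, fell (−0.49), a call that ended without sham replicate 3 (adjusted p = 0.060), and Ddit4 did not pass (0.52). Of the receptor relatives, Insr, the insulin receptor, did not pass (log2 change 0.07), and its sign turned under quantile normalization (−0.0019) and without SCI replicate 1 (−0.013). M6pr, the other mannose 6-phosphate receptor, rose (0.33). In the list for mannose 6-phosphate tagging 2 of 8 rose and 3 fell, with a median of −0.02, and Sort1, or sortilin, fell most (−1.01), followed by the sorting adaptor Gga3 (−0.71).

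In the growth hormone axis 3 of 6 tested genes rose and 0 fell, with a median log2 change of 0.34. For this list and the next, the shares over all genes tested were 26.7% higher and 30.8% lower. Stat5a (0.81) and Socs2 (0.68), a target and an inhibitor of the growth hormone receptor's signalling, rose, as did the kinase gene Jak2 (0.44), and Stat5b did not pass (0.23) except under median-ratio scaling (0.31, adjusted p = 0.025). Gh itself was listed at 0 in every library. Among imprinted genes of the Igf2 network 1 of 14 tested rose and 7 fell, with a median of −0.45. H19 was the one that rose, Peg10 fell (−1.01) and Meg3 fell (−0.49). Ndn, an imprinted gene of neurons, fell (−0.68), a call that ended when sham replicate 1, sham replicate 2 or SCI replicate 2 was left out, without a filter on low values (adjusted p = 0.092) and without the trend (0.051). The count of 7 was 12 under quantile normalization, 4 without a filter on low values and 4 with any of those 3 libraries left out.

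**Figure D4:**
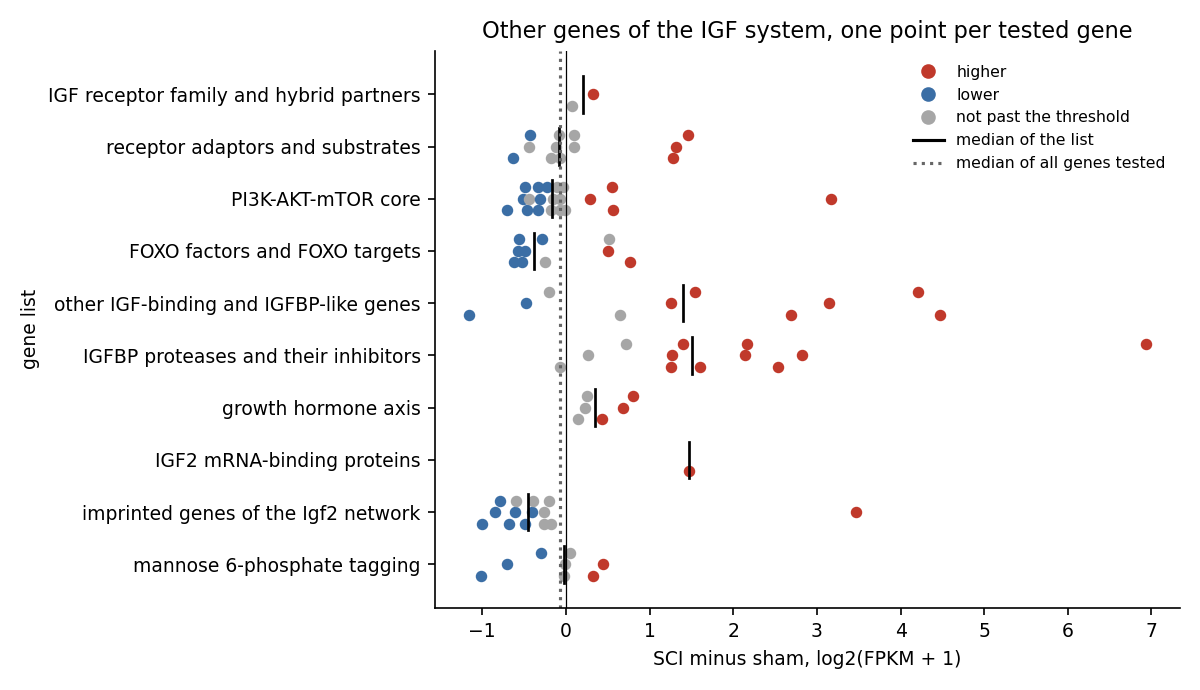
Log2 change (SCI minus sham, log2(FPKM + 1)) of every tested gene in the 10 lists, 1 point per gene in red (higher), blue (lower) or grey (not past the threshold), with the median of each list as a black bar and that of all genes tested as a dotted line. The lists of other IGF-binding genes and of IGFBP proteases had medians of 1.40 and 1.50, and the PI3K, AKT and mTOR list one of −0.17.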

How the data were processed

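Each library has 1 deposited table of FPKM with 2 decimals, per the file headers. Without giving their roles, the submitters' processing notes list StringTie 1.3.4d, HISAT2 2.0.4, edgeR, DESeq2, UMI-tools and cutadapt 1.9. They name build mm9, but all 10 members had the coordinates of GENCODE M21 on GRCm38, as did 91.7% of shared genes, so GRCm38 is given. Low values showed no whole-read steps (at most 4.07% of genes in 1 bin of ratios), so the depth is unknown and no counting error can be given.

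Genes that reached 1 FPKM in 3 or more of the 6 libraries were fitted on log2(FPKM + 1) with limma 3.58.1 (mean-variance trend, R 4.3.3), group as the only term, with Benjamini-Hochberg adjustment over all 17435. Counts were expected in the plan, with this fit as the replacement. The fit was tested on simulated data. The members and the lists were chosen with earlier results of these data known. Named genes are the members, Igfbp1, their neighbours, and from each list the 2 with the largest change among those called and the 2 highest in mean FPKM. Alternatives changed the pseudocount, filter, scaling, trend and block, or left out a library. Protein sequences were not used here, and some genes that the naming rule selects are not reported here.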

Additional observations from a re-analysis of the deposited data

How the results depend on the processing

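Of 15 alternatives, 14 kept the same 7 members as higher. The exception was a filter of a mean of at least 5 FPKM, which left Igf1 untested and kept the other 6. A member changed its side of the threshold in 2 cases: Igfbp6 passed without sham replicate 3 (log2 change 1.27), and Igf2 passed with a replicate block (−0.45, adjusted p = 0.047), which made 1 member lower in place of 0. No pairing of libraries by replicate number was seen: deviations of same-numbered libraries correlated at −0.0076, −0.039 and 0.022, and 2 of 6 libraries correlated best with their own number. With 3 libraries a group this check cannot settle whether the numbers mark pairs. With the block 4398 genes were higher and 5045 lower, against 4653 and 5371 without it. The sign changed for Igf1r under median-ratio scaling (0.032), and for Insr under quantile normalization (−0.0019) and when 1 library was left out (−0.013 without SCI replicate 1, up to 0.12 without SCI replicate 2). Leaving out 1 library gave 4067 to 4709 genes higher and 4136 to 5222 lower, and 7 to 8 members higher. Quantile normalization put the median of all genes at −0.13, against −0.08 in the values as deposited. With 3 libraries a group, an unknown depth and an FPKM scale that other abundant genes can shift, small changes such as that of Igf1r are not resolved.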

Other observations

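The nearest tested neighbours of the family members went both ways. Top2a, a DNA topoisomerase of dividing cells 17054 bases from Igfbp4, went from 0.443 ± 0.0416 to 31.9 ± 6.21 FPKM (log2 change 4.49, limma adjusted p = 7.8e-06). Adcy1, a neuronal adenylyl cyclase 27579 bases from Igfbp3, on the far side of Igfbp1, fell from 33.6 ± 2.54 to 17.6 ± 3.73 FPKM (log2 change −0.91, limma adjusted p = 0.0017). Soat2, which starts 1014 bases beyond Igfbp6, was listed at 0.15, 0 and 0 FPKM without injury and at 2.13, 2.22 and 1.17 FPKM with it (log2 change 1.42, limma adjusted p = 0.0012). Polr2b, whose end overlaps that of Igfbp7, did not pass (log2 change −0.11, limma adjusted p = 0.23).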
